A study of Mus musculus with 211 samples.

Results

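The genes of DNA replication and nucleotide supply were followed as a set of 45 members among the 48709 genes of the deposited table, each found by its Ensembl identifier and the symbol paired with it. All 45 had at least 1 read in at least 1 cell. The cells came from adult CD1 mice carrying Lfng-EGFP, a transgene in which regulatory sequences of Lfng, the gene for lunatic fringe, drive the green fluorescent protein EGFP. GFP-positive cells of the cochlea were sorted, with dead cells excluded by propidium iodide, and were loaded on Fluidigm C1 chips, in which each cell is lysed and copied in its own chamber. The 211 cells came from mice of postnatal day 60 (P60, 8 chip captures) and postnatal day 120 (P120, 4 captures), of either sex. All cells carried the transgene and none was treated. Captures pooled cochleae, and nothing in the labels ties a cell to an animal. Captures, not cells, served as replicates, so p-values measure the spread between captures, which may be technical.

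Before a cell divides, it copies its genome once. The origin recognition complex with Cdc6 and Cdt1 loads the ring of Mcm2 to Mcm7 onto DNA, Cdc45 and the GINS proteins turn that ring into an active helicase, and DNA polymerases follow with the sliding clamp Pcna, which the Rfc complex loads. Deoxynucleotides are supplied by ribonucleotide reductase (Rrm1 and Rrm2), thymidylate synthase (Tyms) and related enzymes. Transcripts of many of these genes are made shortly before and during S phase under E2F factors and are scarce in resting cells. Supporting cells of the mature mammalian cochlea are postmitotic, whereas precursors of granulocytes in the bone marrow divide while they make the primary granule proteins Elane and Mpo, and later make the specific granule proteins Ngp and Camp.

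The label of the cells was checked against marker genes. Among the 164 cells with 50000 or more reads on genes, the leukocyte antigen gene Ptprc had a read in 157, Sox2 in 4 and Prox1 in 3, the last 2 being transcription factor genes of supporting cells. At least 3 of 10 supporting cell markers reached 10 reads in 6 cells, and at least 3 of 5 leukocyte markers did so in 156 cells. Lfng had a read in 112 cells. Defining markers of supporting cells were thus absent from most cells. The labelled cell type is not used below, and cells are named by what they contained. Cells with Elane plus Mpo at 100 or more counts per 1000000 reads (CPM) are called Elane/Mpo cells (36 cells). Of the others, cells with Ngp plus Camp at 100 CPM or more are called Ngp/Camp cells (78 cells), and the remaining 50 cells are called neither. Of the 36 Elane/Mpo cells, 24 also passed the Ngp and Camp threshold. These classes are ranges of a level and not cell types. Elane plus Mpo lay between 50 and 200 CPM in 8 cells. Of the cells outside the Elane/Mpo class, 22 had Ngp plus Camp in that range. Ngp had a read in all 164 cells. Cells outside the Elane/Mpo class were under its threshold but did not all lack these transcripts: 97 of the 128 had at least 1 Elane or Mpo read.

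Promoters of the members are shown first because E2F sites are the best known feature that such genes share, and because the helicase genes had some of the largest differences described below. RefSeq windows from 250 bases before to 50 bases after a start site (mouse build GRCm38.p6) were matched for 37 of the 45 members, in 43 windows. An E2F site, spelled TTTCCCGC, TTTCGCGC, TTTGCCGC or TTTGGCGC on either strand, was found in 14 of 43 windows (32.6%), compared with 2.27% of 32851 windows of all genes and 2.86% of 21263 windows of protein-coding genes. The CCAAT box was found in 58.1% of the member windows and in 38.2% of the protein-coding windows, and the CHR element TTTGAA, best known from mitosis genes, in 11.6% and 16%. The part before the start site is given 5′ to 3′ for 5 members. Capitals mark E2F sites, and sites that overlap run together. Mcm5 (chr8:75109259-75109508, plus strand) and Mcm6 (chr1:128359706-128359955, minus strand) encode helicase subunits and held 2 and 3 sites.
Mcm5: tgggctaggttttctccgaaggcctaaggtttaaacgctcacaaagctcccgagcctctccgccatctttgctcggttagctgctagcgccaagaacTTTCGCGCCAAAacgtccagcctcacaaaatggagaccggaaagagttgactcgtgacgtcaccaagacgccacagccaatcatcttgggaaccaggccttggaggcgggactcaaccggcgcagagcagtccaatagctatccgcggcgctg
Mcm6: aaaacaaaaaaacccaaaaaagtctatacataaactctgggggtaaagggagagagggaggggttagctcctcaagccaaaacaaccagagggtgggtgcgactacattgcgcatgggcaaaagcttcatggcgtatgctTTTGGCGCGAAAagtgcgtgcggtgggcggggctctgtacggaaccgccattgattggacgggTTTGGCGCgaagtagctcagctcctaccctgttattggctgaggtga
Uhrf1 (chr17:56304063-56304312, plus strand, 1 of 2 start sites in the table) held 1 site, and Pcna (chr2:132253181-132253430, minus strand) and Rrm2 (chr12:24708004-24708253, plus strand), which were among the members seen in most cells, held none of these spellings in the window.
Uhrf1: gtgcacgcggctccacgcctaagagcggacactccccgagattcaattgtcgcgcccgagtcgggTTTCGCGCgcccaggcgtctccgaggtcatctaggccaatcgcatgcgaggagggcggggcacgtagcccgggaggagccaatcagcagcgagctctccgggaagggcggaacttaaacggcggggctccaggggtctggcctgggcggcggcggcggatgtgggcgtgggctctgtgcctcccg
Pcna: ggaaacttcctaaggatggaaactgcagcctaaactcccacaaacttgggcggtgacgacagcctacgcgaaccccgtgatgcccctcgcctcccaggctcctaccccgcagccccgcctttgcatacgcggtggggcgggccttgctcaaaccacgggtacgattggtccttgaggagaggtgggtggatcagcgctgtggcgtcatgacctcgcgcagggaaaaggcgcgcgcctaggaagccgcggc
Rrm2: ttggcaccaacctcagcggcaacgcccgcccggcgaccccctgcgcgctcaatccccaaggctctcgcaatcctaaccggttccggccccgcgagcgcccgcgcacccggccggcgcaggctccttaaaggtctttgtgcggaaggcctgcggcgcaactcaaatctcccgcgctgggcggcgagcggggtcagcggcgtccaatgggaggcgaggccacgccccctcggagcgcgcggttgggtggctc
A match in these letters is a description of the window, and no match says only that these letters were not found there.

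The score of a cell is the number of members with 1 or more reads. On all reads of a cell its median was 5 members, from 0 to 38. Because the 164 cells held between 64947 and 5361476 reads on genes (median 1080022), each cell was thinned at random to 50000 reads, and unless stated otherwise the score is counted there. The median was then 1 member, from 0 to 32. At 50000 reads 50 cells had no member, 56 had 1 to 3 and 19 had 4 to 9. None had 10, 24 had 11 to 19 and 15 had 20 or more. The gap at 10 was seen in this thinning only, since on all reads there were cells with 10 members. In the text 10 or more members is called a high score, a limit set after these values were seen. High scores were found in 39 of 164 cells (23.8%, exact 95% binomial interval 17.5 to 31). Such intervals cover counting error only, since reads carry no molecular identifiers and cells of a capture share their preparation.

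Most cells with high scores were Elane/Mpo cells. The median score was 17 members in Elane/Mpo cells (from 2 to 32), 1 in Ngp/Camp cells (from 0 to 20) and 0 in cells with neither (from 0 to 22). A high score was seen in 28 of 36 Elane/Mpo cells (77.8%, interval 60.9 to 89.9), 7 of 78 Ngp/Camp cells (8.97%, 3.69 to 17.6) and 4 of 50 cells with neither (8.0%, 2.22 to 19.2). Of the 11 high-scoring cells outside the Elane/Mpo class, 8 had Elane plus Mpo at 10 to 100 CPM, under the class threshold. None of the 36 Elane/Mpo cells was without a member, compared with 24 Ngp/Camp cells and 26 cells with neither. On all reads the medians were 24.5, 4 and 2 members. Elane/Mpo cells also held more genes of any kind at the same number of reads, with a median of 2524 genes compared with 1088 and 693. Over the 164 cells, which share captures and libraries, Spearman's rho between the score and the number of genes was 0.77, and between the score and the reads of the cell before thinning 0.24. The part of the number of genes in the score was not tested. Of the 6 cells with at least 3 supporting cell markers at 10 reads, 3 had a high score. The median of the 6 was 7.5 members and the highest 19, and 2 of the 6 were in capture 21c, where no cell had a high score. The 3 were Elane/Mpo cells, since 0 of the 11 high-scoring cells of the other classes held 3 such markers.

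**Figure D1:**
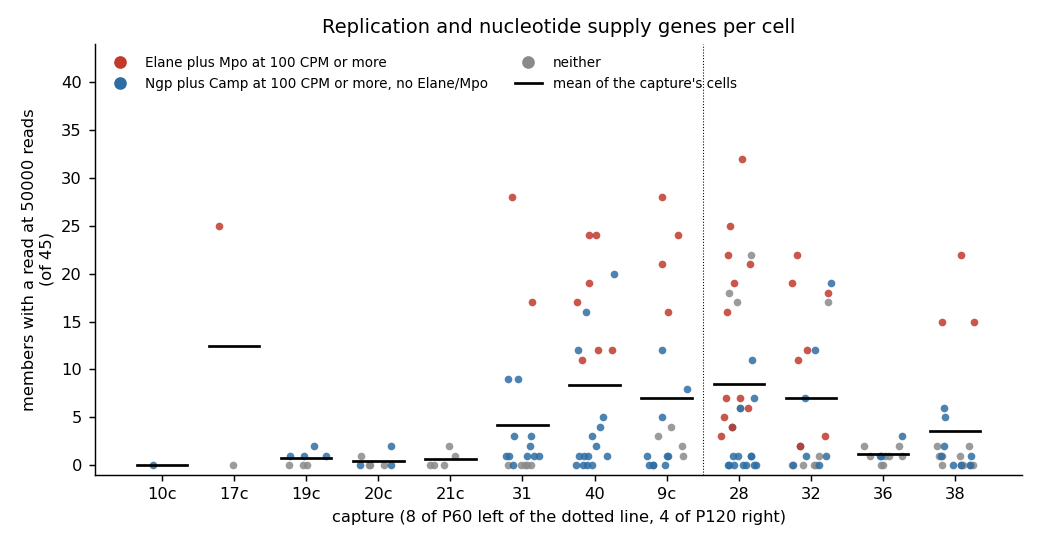
Number of the 45 members with at least 1 read in each cell thinned to 50000 reads (vertical axis), by capture (horizontal axis, P60 left and P120 right of the dotted line). Points are the 164 cells coloured by class, and the black bars are capture means, which lie between 0.429 and 8.45 in captures with at least 3 cells; Elane/Mpo cells form most of the points above 10.

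Comparing Elane/Mpo cells with the other cells of the same capture shows how the replication genes go with the primary granule genes. This could be done in 5 captures that had at least 3 cells in each class. The mean score of Elane/Mpo cells was 13.9 in capture 28, 12.4 in capture 32, 17.3 in capture 38, 17 in capture 40 and 22.3 in capture 9c. In the other cells of those captures it was 5.0, 4.29, 1.22, 4.4 and 2.71. The ranges did not overlap, and Elane/Mpo cells were higher in 5 of 5 captures, by 13.1 members on average (SD 4.82, n = 5 captures). The exact two-sided sign-flip permutation test gave p = 0.0625, which is the smallest value that 5 captures allow, and 0.188 after Benjamini-Hochberg adjustment over the 3 tests of the score. The design therefore could not reach 0.05. The difference was 16.1 members in 2 P60 captures and 11.1 in 3 P120 captures, and these did not differ beyond the spread of captures (exact permutation test, p = 0.3, smallest possible 0.1).

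Sequencing run moved with the score. Captures 9c, 10c, 17c, 19c, 20c and 21c, all of P60, were in run S047, and the cells of the other 6 captures were divided between runs S059iso1 and S059iso2. In these 6 captures the mean score was higher in S059iso1 than in S059iso2 in 6 of 6, with means over captures of 10.5 and 1.60 members. Among cells outside the Elane/Mpo class it was also higher in 6 of 6 captures, with means of 8.15 and 1.02. Of the 36 Elane/Mpo cells, 21 were in S059iso1, 10 in S059iso2, all of capture 28, and 5 in S047. What assigned a cell to a run is not stated, so run and kind of cell cannot be told apart here. With class compared within capture and run, the mean difference was 10.1 members, and it was higher in 4 of 5 sets. In the cells of capture 32 in S059iso1 the mean was 12.4 in 7 Elane/Mpo cells and 16 in 3 other cells.

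**Figure D2:**
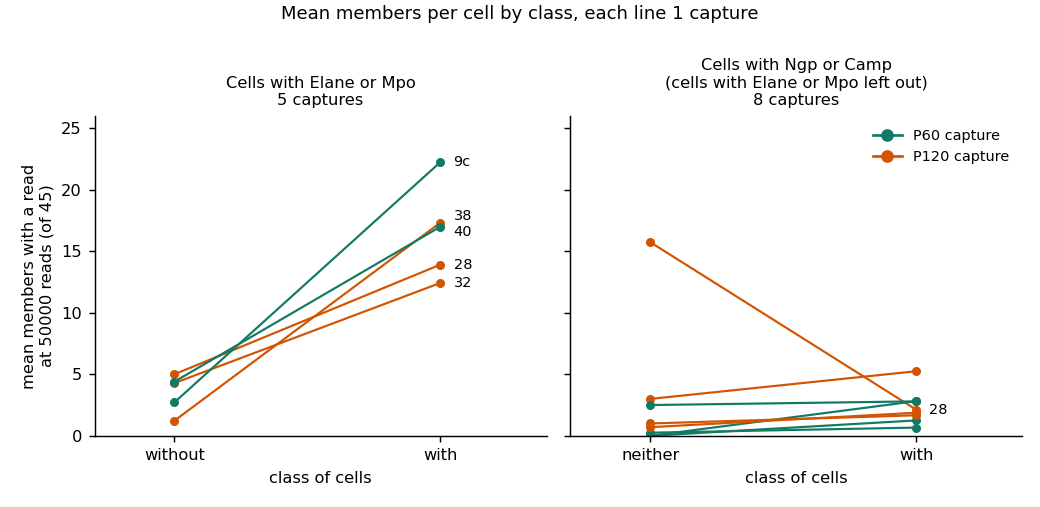
Mean score of each class (vertical axis, members of 45 with a read at 50000 reads) in captures with at least 3 cells per class, joined by a line for each capture. All 5 lines rise from other cells to Elane/Mpo cells on the left, whereas on the right 7 of 8 lines rise slightly from cells with neither to Ngp/Camp cells and that of capture 28 falls from 15.8 to 2.13.

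Among cells outside the Elane/Mpo class, Ngp and Camp went with smaller differences. In 8 captures the mean score was 2.31 members in Ngp/Camp cells (SD 1.39) and 2.90 in cells with neither (SD 5.31), a mean difference of -0.59 (SD 5.34; exact sign-flip permutation test, p = 1.0). Ngp/Camp cells were higher in 7 of 8 captures, by 0.3 to 2.82 members, and lower by 13.6 in capture 28. Without capture 28 the mean difference was 1.27 members (exact sign-flip permutation test, p = 0.0156 over 7 captures, 0.0469 adjusted over the 3 tests), so the result rested on that capture. The 4 cells with neither in capture 28 included 3 with high scores. With capture 32 there were 4 such cells in all, with scores from 17 to 22 and with 14 to 19 of 20 mitosis genes, all in run S059iso1. Of these 4 cells, 3 held at least 10 reads of Cd79a, Cd79b, Vpreb1 and Vpreb3, genes of the B cell lineage. Ms4a1, the other B cell marker looked for, reached 10 reads in 0 of the 4 cells. The 3 cells were the only ones of 164 with 3 or more of the 5 B cell markers. High scores in Ngp/Camp cells were found where the specific granule genes were highest: 7 of 48 cells with Ngp plus Camp at 10000 CPM or more had a high score, compared with none of 10 cells at 1000 to 10000 CPM and none of 20 cells at 100 to 1000 CPM (upper bounds of the exact 95% intervals, 30.9% and 16.8%).

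Member by member, the share of cells with a read was higher in Elane/Mpo cells for 44 of 45 members in the pooled cells of the 5 captures. The median difference in share was 26.9 percentage points over the members and 3.37 points over all 16144 genes with a read, of which 71.7% were positive. In 5 of 5 captures the share was higher in Elane/Mpo cells for 22 of 45 members, compared with 10.8% of all genes. Shares by role follow, for all 36 Elane/Mpo, 78 Ngp/Camp and 50 remaining cells.

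The licensing factors were seen in few cells. Orc6, a subunit of the origin recognition complex, had a read in 15 of 36 Elane/Mpo cells (41.7%), 5 of 78 Ngp/Camp cells (6.41%) and 3 of 50 cells with neither (6.0%). Cdt1, which brings the helicase ring to origins, was seen in 11, 2 and 0 cells, and its inhibitor Gmnn (geminin) in 18, 3 and 3 cells. Orc1 was seen in 5, 1 and 3 cells and Cdc6 in 4, 3 and 1 cells. Gmnn and Orc6 were the licensing genes with higher shares in Elane/Mpo cells in 5 of 5 captures.

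The helicase subunits were the most regularly seen group, with a median share of 55.6% in Elane/Mpo cells and of 7.69% and 6.0% in the other classes. Mcm5 was found in 26 of 36 Elane/Mpo cells (72.2%, interval 54.8 to 85.8), 5 of 78 Ngp/Camp cells (6.41%) and 2 of 50 cells with neither (4.0%). By capture, Mcm5 was seen in 7 of 12 Elane/Mpo cells of capture 28, 4 of 7 of capture 32, 3 of 3 of capture 38, 6 of 7 of capture 40 and 3 of 4 of capture 9c. In the other cells it was seen in 1 of 19, 2 of 14, 0 of 18, 1 of 15 and 2 of 14. The lowest share among Elane/Mpo cells was thus above the highest among the others. Mcm4 was the subunit most often seen outside Elane/Mpo cells, in 24, 16 and 7 cells of the 3 classes. Mcm3 was seen in 22, 6 and 3 cells, Mcm6 in 18, 8 and 2, Mcm2 in 15, 6 and 3 and Mcm7 in 15, 6 and 4. At 50000 reads, 4 or more of the 6 subunits were present together in 22 of 36 Elane/Mpo cells, 3 of 78 Ngp/Camp cells and 1 of 50 cells with neither, and all 6 in 1 cell of each class. On all reads, which were more in Elane/Mpo cells (median 1823624.5 compared with 992842.5 and 867862.5), all 6 were present in 13, 2 and 3 cells.

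The genes that activate the helicase were seen less often. Cdc45 had a read in 13, 5 and 2 cells and Mcm10, which helps to start the helicase, in 12, 3 and 1 cells, both with higher shares in 5 of 5 captures. Of the GINS genes, Gins2 and Gins4 were each seen in 8 Elane/Mpo cells, Gins1 in 6 and Gins3 in 2. Gins3 was higher in 1 capture and lower in 2. Exons of Gse1 overlap those of Gins2 over 67.3% of their length, so its reads are uncertain.

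Pcna, the sliding clamp, was seen in 26, 16 and 5 cells (72.2%, 20.5% and 10.0%). By capture it was found in 7 of 12, 4 of 7, 3 of 3, 5 of 7 and 4 of 4 Elane/Mpo cells and in 5 of 19, 3 of 14, 3 of 18, 3 of 15 and 4 of 14 other cells, in the order of captures given for Mcm5. These shares did not overlap. The table also lists Pcna-ps2, a copy of Pcna, with 6469 reads in 46 cells, 41 of which also held Pcna (21718 reads), so that reads of both may be divided. Among the clamp loader genes Rfc1 was seen in 23, 14 and 4 cells and Rfc2 in 18, 8 and 4, while Rfc3, Rfc4 and Rfc5 were seen in 8, 11 and 8 Elane/Mpo cells. For the single-strand binding complex, Rpa3 was seen in 21, 5 and 5 cells, Rpa1 in 13, 5 and 2 and Rpa2 in 9, 2 and 2.

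Polymerase genes were among the least often seen. The primase subunits Prim2 and Prim1 were found in 19 and 12 Elane/Mpo cells, and the polymerase alpha genes Pola1 and Pola2 in 12 and 6. Pold1 and Pold2, of polymerase delta, were found in 8 and 4 Elane/Mpo cells and Pole and Pole2, of polymerase epsilon, in 6 each. Of the genes that join Okazaki fragments, the ligase Lig1 was seen in 16, 3 and 3 cells. Fen1, the flap endonuclease, was the 1 member of 45 without a higher pooled share. It was seen in 0 of 36 Elane/Mpo cells, which allows a share of up to 9.74%, and in 1 of 164 cells, with 77 reads in the whole table. Exons of Tmem258 and Gm10143 overlap 84.2% of its exon length, the largest overlap among the members, and the part of this overlap in its low count was not tested. Over the 45 members Spearman's rho between the overlap and the share of cells was -0.25, a description over genes that share their cells.

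Nucleotide supply genes were seen about as often as the helicase, with a median share of 48.6% in Elane/Mpo cells. Rrm2, the regulated subunit of ribonucleotide reductase, was seen in 25, 14 and 4 cells and had the most reads of any member (55736). It was found in 8 of 12, 3 of 7, 3 of 3, 5 of 7 and 3 of 4 Elane/Mpo cells and in 5 of 19, 3 of 14, 1 of 18, 5 of 15 and 3 of 14 other cells, in the same order of captures. Dut, which removes dUTP, was seen in 22, 10 and 6 cells, Tyms in 19, 8 and 3, Rrm1 in 16, 5 and 6 and the thymidine kinase Tk1 in 13, 5 and 2. These 5 genes had higher shares in 5 of 5 captures, whereas Ung, which cuts uracil out of DNA, was seen in 2, 1 and 1 cells. Of the chromatin genes, Uhrf1, which guides maintenance methylation behind the fork, was seen in 25, 14 and 3 cells, and Chaf1b and Chaf1a of the histone chaperone CAF-1 in 10 and 4 Elane/Mpo cells. Chaf1a was higher in 1 capture and lower in 4: its 4 Elane/Mpo cells were all in capture 40. It shares 52.5% of its exon length with Ubxn6.

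**Figure D3:**
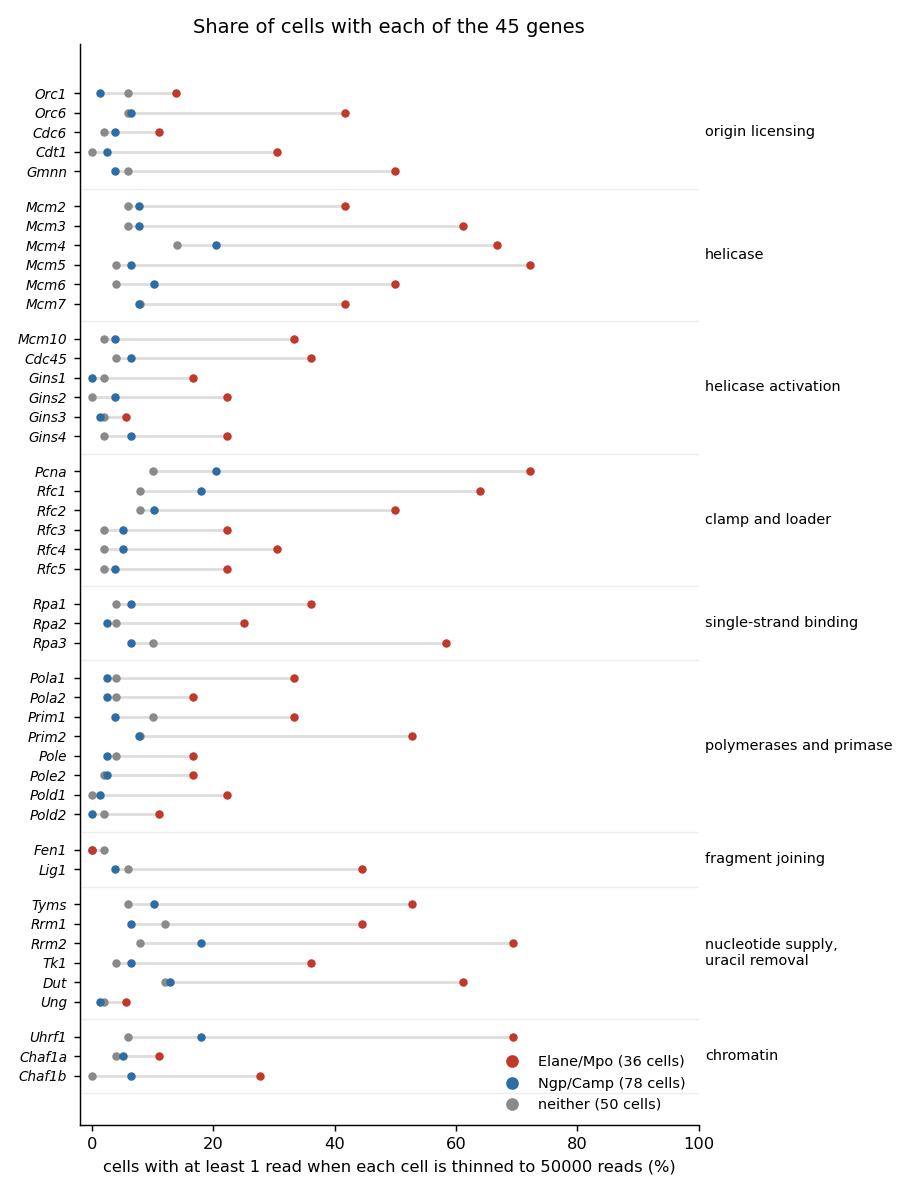
Percent of cells with at least 1 read of each member after thinning to 50000 reads (horizontal axis), for the 3 classes of cells, with members grouped by role (vertical axis). The Elane/Mpo point lies to the right of the other classes for 44 of 45 members, with a median of 33.3% compared with 5.13% and 4.0%, and Fen1 is the exception.

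Levels were compared between genes per length, as CPM per kilobase of exon in the summed cells of a class. In Elane/Mpo cells the level was 203 for Rrm2, 108.7 for Pcna, 95.2 for Mcm5, 93.3 for Mcm4, 89.2 for Gmnn and 88.5 for Uhrf1. In Ngp/Camp cells the same levels were 46.2, 18.8, 2.28, 13.8, 7.35 and 14.2. In cells with neither they were 54.8, 9.13, 9.24, 33.6, 0.912 and 33.3. Over the 45 members the level in Elane/Mpo cells ran from 0.0273 for Fen1 to that of Rrm2. On this scale Rrm2 was the highest member in Elane/Mpo and Ngp/Camp cells. The level of Mcm2 was 8.75 in Elane/Mpo cells and 27.8 in cells with neither, but the latter rested on the 4 such cells of capture 28, which held 10052 reads of Mcm2 and of which 3 had high scores. In the other 7 captures compared, cells with neither held 353 reads of Mcm2 in capture 32 and none elsewhere.

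The differences in read sums were tested with edgeR's quasi-likelihood test within captures. Counts were summed per class in the 5 captures, and 7519 genes including 39 members passed the filter on low counts, which can favour members that are high in 1 class. After Benjamini-Hochberg adjustment 0 of 39 members passed, compared with 0.239% of the genes tested called higher and 0.745% called lower. By unadjusted p, 4 of 39 members were under 0.05, compared with 12.9% of all genes tested, so this count was not above the background. Of the 39, 36 had a positive log2 fold change in Elane/Mpo cells, with a median of 2.15, compared with 0.09 over all genes tested. For Mcm5 the reads made up 187, 287, 488, 729 and 173 CPM in Elane/Mpo cells of captures 28, 32, 38, 40 and 9c, and 1.70, 128, 0, 1.35 and 75 CPM in the other cells. The lowest of the former was above the highest of the latter, and the other cells were divided between captures with almost no reads and captures with many. Its log2 fold change was 5.57 (SE 2.45, edgeR adjusted p = 0.359). Mcm3 stood at 82.1, 258, 328, 385 and 270 CPM and at 22.7, 88.6, 0.0992, 1.84 and 0.354 CPM, and here the classes overlapped, since capture 32 had more in its other cells than capture 28 in its Elane/Mpo cells. Its log2 fold change was 5.84 (SE 2.27, edgeR adjusted p = 0.295). Cdt1 (6.72, SE 3.07) and Gins1 (7.72, SE 3.43) were the other 2 with an unadjusted p under 0.05, with edgeR adjusted p of 0.381 and 0.370. Pcna (1.59, SE 1.29), Mcm4 (1.79, SE 1.26), Uhrf1 (1.17, SE 1.21) and Rrm2 (0.95, SE 1.04) had smaller log2 fold changes with edgeR adjusted p between 0.612 and 0.785.

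DESeq2 on the same sums called many more genes. It called 12 of 39 members higher, compared with 12.4% of all genes tested, and 1 lower, compared with 10.2%. The 12 were Mcm3, Mcm5, Mcm6, Mcm10, Cdt1, Gmnn, Gins1, Gins2, Rfc5, Rpa2, Pola1 and Pole, and the lower one was Chaf1a (log2 fold change -4.80, SE 1.73, DESeq2 adjusted p = 0.0282). Whether members passed thus depended on the tool, and no member passed in edgeR at this threshold. Scaling by library size alone raised the median of all genes from 0.09 to 0.89 and that of the members from 2.15 to 3.08, and 37 of 39 members were then higher.

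Other genes of replication and nucleotide metabolism were counted as a list of 57. In edgeR 45 were tested, 30 had positive log2 fold changes in Elane/Mpo cells (median 1.0) and 1 passed. This was Samhd1, which breaks down deoxynucleotides, and it was lower: it stood at 1.24, 6.44, 22.2, 67.3 and 1.90 CPM in Elane/Mpo cells and at 201, 242, 1030, 652 and 210 CPM in the other cells of captures 28, 32, 38, 40 and 9c. No value of one class reached those of the other (log2 fold change -6.49, SE 0.98, edgeR adjusted p = 0.00614). This call was lost within capture and run (edgeR adjusted p = 0.527), with at least 5 cells per class (0.134), with classes at 1000 CPM (0.0592) and without cells that had Mcpt8 or Prss34 (0.0565), while the direction stayed. Samhd1 is also known for its high level in myeloid cells. DESeq2 called 7 of the 45 higher, among them Shmt1 and Dctpp1 of nucleotide metabolism, and 4 lower, which is near the 12.4% and 10.2% of all genes.

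In these sums mitosis genes stood differently from the members, and their direction depended on the class threshold and, for some, on the scaling. Of a list of 20, 2 had a positive log2 fold change in Elane/Mpo cells and 18 a negative one, with a median of -1.51. In edgeR 0 passed, and 3 had an unadjusted p under 0.05, compared with 12.9% of all genes tested. DESeq2 called 3 lower, compared with 10.2% of all genes, so these counts were near the background. Scaled by library size alone, 7 of the 20 were positive (median -0.74, compared with 0.89 over all genes). With that scaling 0 had an unadjusted p under 0.05 in edgeR. With classes at 10 CPM all 20 had positive fold changes (median 3.01). The 45 members together made up 3494, 4188, 7669, 5545 and 5632 CPM in Elane/Mpo cells of captures 28, 32, 38, 40 and 9c and 1793, 3231, 447, 1013 and 1026 CPM in the other cells, and were higher in 5 of 5. The 20 mitosis genes made up 2510, 2010, 2955, 959 and 3203 CPM and 3365, 4729, 1686, 2028 and 3569 CPM, and were lower in 4 of 5. Ube2c, a ubiquitin-conjugating enzyme of mitotic exit, stood at 31.1, 1.19, 53.9, 91.4 and 206 CPM and at 222, 428, 155, 304 and 280 CPM (log2 fold change -3.35, SE 1.23, edgeR adjusted p = 0.262), and its log2 fold change was 3.52 with classes at 10 CPM. Few cells carried the reads of the other cells: for Ube2c the 4 cells with neither of capture 28 held 5423 of 6383 reads, and the 6 of capture 32 held 6758 of 7087. Counted as genes seen per cell, however, mitosis genes were also higher in Elane/Mpo cells in 5 of 5 captures, with means of 4.14 to 11.3 compared with 1.56 to 5.13 genes.

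**Figure D4:**
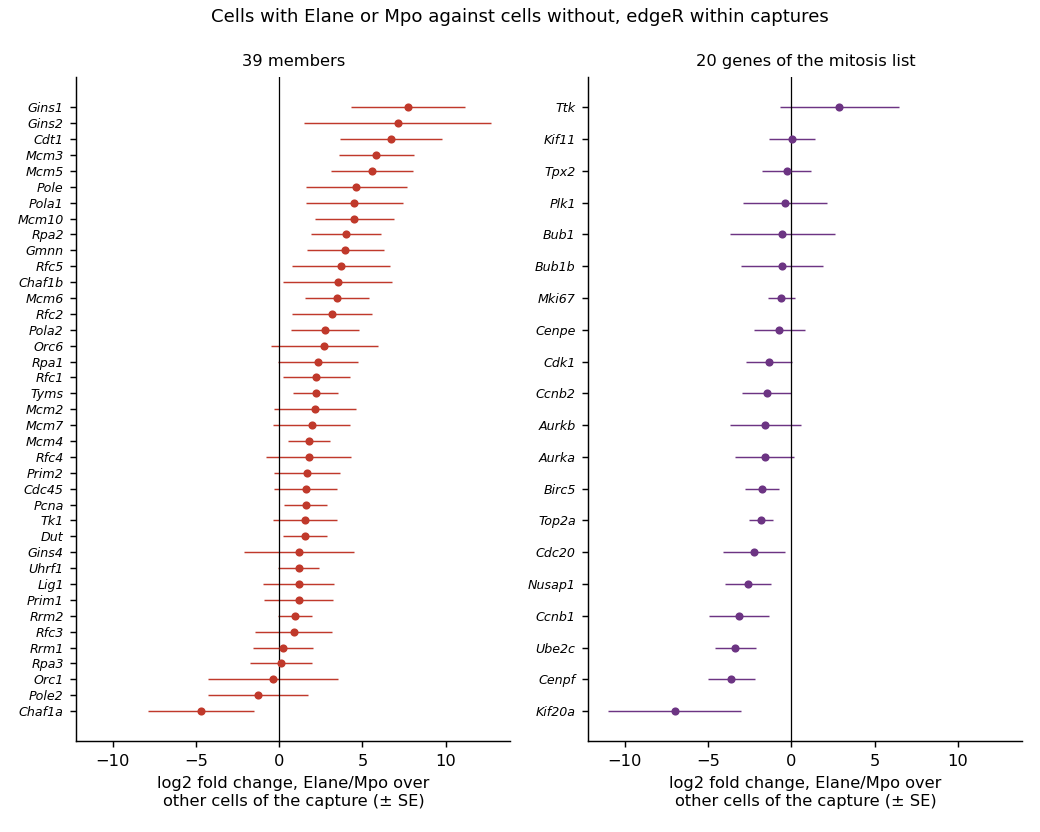
Log2 fold change (horizontal axis, bars are standard errors) of read sums in Elane/Mpo cells over other cells of the same capture, by gene (vertical axis), from edgeR on 5 captures. Of 39 tested members on the left 36 lie above 0, and of 20 mitosis genes on the right 2 do.

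The classes differed in how members and mitosis genes came together in a cell. Of the 39 cells with a high score, 26 had 5 or more mitosis genes, and none had 0. Of the 28 high-scoring Elane/Mpo cells 16 did, compared with 10 of the 11 other high-scoring cells. Of 21 Elane/Mpo cells with 5 or more mitosis genes, 16 had a high score (median 17 members). The 5 with a lower score were all in capture 28 and in run S059iso2. Of 19 Ngp/Camp cells with 5 or more mitosis genes, 6 had a high score (median 6 members). The 13 with a lower score came from 5 captures, and 3 of the 13 were in S059iso2. In 6 captures with such cells of both classes, the median score of Elane/Mpo cells was 7, 22.5, 20, 15, 20.5 and 24, and that of Ngp/Camp cells 7, 9, 15.5, 5, 4.5 and 6.5 (captures 28, 31, 32, 38, 40 and 9c, with 1 to 8 cells per class). It was higher in Elane/Mpo cells in 5 of 6 captures and equal in capture 28. Among all 19 Ngp/Camp cells with 5 or more mitosis genes Rrm2 was seen in 12, Pcna in 9, Mcm4 in 7 and Mcm5 in 3, and among the 21 Elane/Mpo cells in 18, 16, 15 and 16. Of the mitosis genes, which chose these cells, Top2a was seen in 19 and 18 cells and Ube2c in 16 and 10. The number of genes of any kind was also lower in the Ngp/Camp cells with 5 or more mitosis genes (median 1801 compared with 2615), and its part was not tested. These counts were chosen after the values were seen and were given no test.

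**Figure D5:**
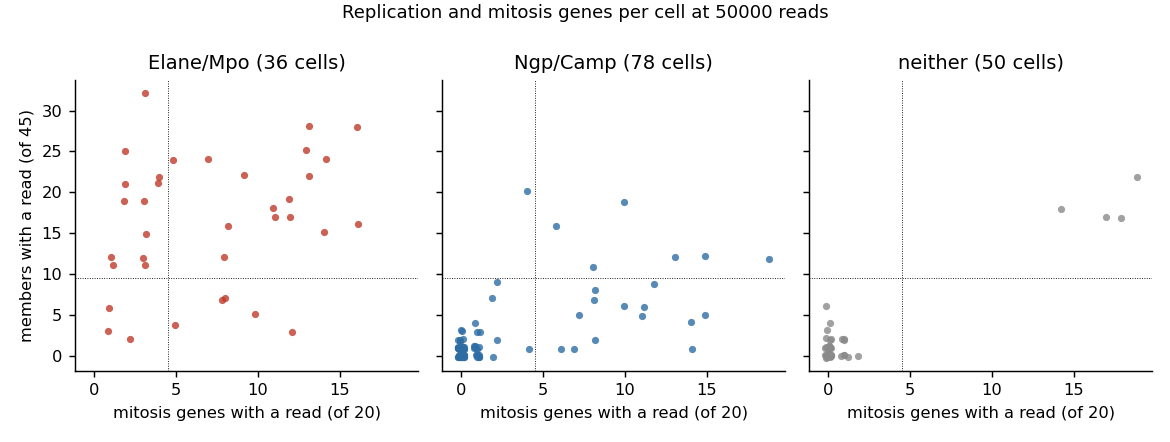
Members with a read (vertical axis, of 45) against mitosis genes with a read (horizontal axis, of 20) in each cell thinned to 50000 reads, with a panel for each class, points moved slightly so that they do not hide each other. The dotted lines mark 5 mitosis genes and 10 members; Ngp/Camp cells occupy the lower right field with 13 cells, Elane/Mpo cells with 5 and cells with neither with 0.

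Basophil genes were present in part of the Elane/Mpo cells. Mcpt8 plus Prss34, proteases of basophils, reached 100 CPM in 13 of 36 Elane/Mpo cells, whose mean score was 17 members (SD 8.08) compared with 15.8 (SD 8.12) in the other 23. Without cells that had these genes, 3 captures remained and the mean difference between Elane/Mpo cells and the others was 12.4 members.

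No difference between the ages passed a test, which does not show that they are alike. The mean score of a capture was 0.714 (19c), 0.429 (20c), 0.6 (21c), 4.22 (31), 8.41 (40) and 7.06 (9c) for P60 and 8.45 (28), 7.0 (32), 1.18 (36) and 3.52 (38) for P120. The ranges overlapped. The P120 captures were higher by 1.47 members, with means of 5.04 (SD 3.30, n = 4) and 3.57 (SD 3.55, n = 6), and the exact permutation test gave p = 0.529 (adjusted 0.793). In captures outside run S047 the difference was -1.28 members (4 against 2 captures, exact permutation test, p = 0.6). Within S059iso1 it was 1.28 and within S059iso2 1.50 members, so no single run showed the lower value, and the captures differed in how their cells were divided between these runs. Captures 10c and 17c had 1 and 2 such cells and were left out. Elane/Mpo cells made up 14 of 80 cells at P60 and 22 of 84 at P120.

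Sums over all cells of a capture were compared in the same way. All 45 members together ranged from 25.2 to 6440 CPM over 8 P60 captures (median 706) and from 211 to 3708 CPM over 4 P120 captures (median 2227), and the ranges overlapped. In such sums fewer cells of a kind and less RNA per cell cannot be told apart. In edgeR 41 members were tested and 0 passed, compared with 0.12% of 8346 genes (5 higher and 5 lower at P120). The median log2 fold change of the 41 was 0.40, compared with 0.26 over all genes. With a term for run S047 against the other runs it was -0.25, again with 0 called. That term did not separate S059iso1 from S059iso2, whose cells were summed together in a capture. Over 26 members in cells outside the Elane/Mpo class the median was 1.72, compared with 0.36 over all genes, also with 0 called. There 3 of the 26 had an unadjusted p under 0.05 in edgeR, compared with 5.61% of genes. High scores among cells with neither were seen in 4 of 28 cells at P120 and 0 of 22 at P60. The part of these few cells in that median was not tested. In the sums of all cells, 1 of 41 members had an unadjusted p under 0.05 in edgeR, compared with 5.31% of all genes. In DESeq2 it was 0, so in these sums the members were not above the background. The 1 was Mcm7, a helicase subunit, with 0, 29.2, 0, 0, 0.214, 0.793, 12.5 and 19.1 CPM in P60 captures 10c, 17c, 19c, 20c, 21c, 31, 40 and 9c and 40.5, 253, 0 and 218 CPM in P120 captures 28, 32, 36 and 38. The P120 captures thus included the 3 highest values and one without a read (log2 fold change 4.32, SE 2.01, edgeR adjusted p = 0.824).

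Read sums of Ngp/Camp cells against cells with neither could be tested for few members. Of 2791 genes in 8 captures, 3 members passed the filter on low counts, Dut, Pcna and Mcm4, with log2 fold changes of 0.49, 3.24 and 3.66. In edgeR 0 of 3 passed, compared with 0.502% of genes called higher, and 0 of 3 had an unadjusted p under 0.05. DESeq2 called Mcm4 (3.76, adjusted p = 0.0269), compared with 11.4% of genes. Mcm4 stood at 0.413, 33.1, 27.6, 2.99, 127, 58.7, 16.6 and 41.5 CPM in Ngp/Camp cells and at 0.873, 0, 7.74, 0, 685, 19, 0.62 and 0 CPM in cells with neither (captures 19c, 20c, 28, 31, 32, 36, 38 and 9c). It was higher in 6 of 8 captures, and the highest value of all was in cells with neither.

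Members tended to be seen in the same cells, less so within a class. Over all pairs of members, the median phi coefficient of being seen in the same cells was 0.26 over 164 cells, 0.14 within Elane/Mpo cells and 0.15 within the others. The highest pairs were Rrm2 with Uhrf1 (0.70), Mcm3 with Mcm5 (0.69) and Pcna with Rrm2 (0.66). Outside the members, the 10 genes whose counts at 50000 reads followed the score most closely over 164 cells, among 4427 genes seen in at least 10% of them, were Snrpg, Ppia, Ptma, Rpsa, Tagln2, Ran, Tubb5, Tuba1b, Rps28 and Rps19, with Spearman's rho from 0.77 to 0.68. None was on the mitosis list or the list of other replication genes. They encode, among others, a spliceosome protein, ribosomal proteins and tubulins. The genes that ran most against the score were Retnlg (-0.53), Trem1 (-0.52) and Il1b (-0.51), which are known from mature neutrophils and were named after their values were seen. These are descriptions over cells that share captures, libraries and the number of genes seen.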

How the data were processed

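Single cells of Lfng-EGFP cochleae were captured on Fluidigm C1 chips and full-length cDNA was sequenced. The deposited matrix holds raw counts of reads per gene, without molecular identifiers; per the labels and the study's methods the authors aligned reads with STAR to mm10 (GRCm38) and removed endothelial cells and outliers before deposit. Cells of 211 columns were used. The deposited GFP intensity score of the metadata table was not used, nor were spike-in counts. Age was taken from the labels, and capture and run from the deposited cell table. The members and lists were chosen with earlier results of these data known, and all 45 members are named. Of the other replication genes at most 6 that passed a test are named, and of all genes the 10 that follow the score most closely.

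Library totals count genes only. In cells with 50000 or more reads the score was counted after thinning without replacement (Python 3.11.15, numpy 2.4.6, seed 20). Classes used 100 CPM, and captures entered with at least 3 cells per class. Doublets were gated out by scatter in the sort per the study's methods, and no caller was run. Scores were tested over captures with exact two-sided permutation or sign-flip tests, and sums with edgeR 4.0.16 (TMM, filterByExpr, quasi-likelihood test, Benjamini-Hochberg over all genes tested, 0.05), capture as a block for classes. The standard error was derived from the log2 fold change and its F statistic. DESeq2 1.42.0 and the other settings were alternatives. In data simulated with the estimated dispersions, edgeR recovered 0 of 100 genes changed by 4 on the log2 scale for age (8346 genes) and 7 of 100 for Elane/Mpo cells (7519 genes), so a member that did not pass is not shown to be equal. No 2 cells had identical counts. Nothing says that captures of an age are independent beyond being separate chips. Exon overlap came from GENCODE vM21 and promoters from RefSeq GRCm38.p6.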

Additional observations from a re-analysis of the deposited data

Results flagged for a closer look

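Capture 28 stood apart from the other 7 captures in the difference between Ngp/Camp cells and cells with neither, at -13.62 members compared with 0.3 to 2.82. Its cells with neither numbered 4 and included 3 with high scores.

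Capture 17c stood apart from the other 7 P60 captures in the sum of members over all its cells, at 6440 CPM, with 3 deposited cells, of which 1 was an Elane/Mpo cell with 25 members at 50000 reads. About 1 group in 20 is picked out in this way by chance.

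Cells with fewer than 50000 reads were outside the score. Of these 47 cells, 29 held a member read and 15 held at least 3 member reads. The highest count was 26 members in a cell of 43998 reads, which was also an Elane/Mpo cell.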

How the results depend on the processing

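The score was higher in Elane/Mpo cells under every alternative, from 9.89 members (captures with at least 5 cells per class) to 17.7 (all reads), and from 11.4 to 14.3 when a capture was left out, with adjusted p never under 0.05. The age difference ranged from 0.33 to 2.75 members when a capture was left out and was -1.28 outside run S047. For Ngp/Camp cells the mean difference was -0.59 members and turned positive with a class threshold of 1000 CPM (0.616), with at least 5 cells per class (2.08) and within capture and run (1.02, chosen after seeing the data); leaving out a capture gave -1.08 to 1.27, the latter without capture 28. Members called were 0 for age in all settings. For Elane/Mpo cells 0 were called except 13 in DESeq2 and 1 (Rrm1) at a threshold of 10 CPM, where the median of all genes was 1.201 and all 20 mitosis genes had positive fold changes (Ube2c 3.52). For Ngp/Camp cells 0 were called except 1 in DESeq2. Leaving out a capture called 0 members in each comparison. Genes called higher and lower with Elane/Mpo were 18 and 56 in edgeR, 27 and 24 with library size only and 933 and 765 in DESeq2. They were 30 and 135 with no filter and 12 and 12 within capture and run. With Ngp/Camp they were 14 and 0 in edgeR, with 319 higher (11.4%) and 3.69% lower in DESeq2. For age they were 5 and 5 in edgeR and 0 and 0 with the term for run S047. Rrm2 was -0.39 at 1000 CPM and -0.50 without Mcpt8 or Prss34 cells. Against cells with neither, Dut was -2.21 and Mcm4 -0.98 without the block, and Dut -0.14 at 1000 CPM and -0.42 to 0.51 when a capture was left out. Samhd1 was lower in all settings (-4.35 to -6.83) and lost its call at 1000 CPM, with 5 cells per class, within capture and run, and without Mcpt8 or Prss34 cells. The cause was not tested. Ngp/Camp cells at 10 CPM gave no capture with enough cells. Leaving out members seen in over 50% of cells outside the Elane/Mpo class removed no member, so that alternative equals the value as reported. Classes were compared within captures, and without capture as a block 32 of 39 members in place of 36 had positive fold changes, with 0 called.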
